A study of Mus musculus with 18 samples.

Results

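The transcripts described here encode 10 proteins that build, break down or export triglyceride in the liver cell: Gpam, Agpat2, Agpat3, Lpin1, Lpin2, Dgat1, Dgat2, Pnpla2, Pnpla3 and Mttp. They were taken by gene symbol from an expression table of mouse liver that lists 19057 genes, and all 10 were listed. The table holds 18 RNA-seq libraries in 6 groups of 3, all from livers of ICR mice labelled as 10 weeks old, which the study's methods give as male. Con mice were controls on a regular diet given saline, as the study's methods state, and A10 mice are labelled with alginate oligosaccharide (AOS) at 10 mg/kg and no other treatment. HS mice were fed a high-fat diet and received a single injection of streptozotocin (STZ), a toxin taken up by pancreatic beta cells, and HS+A10 mice carried the same diet and STZ with AOS at 10 mg/kg. The A10 and HS+A10 groups are known here from the labels alone. The remaining groups, A10-FMT and Con-FMT, were also on high-fat diet and STZ and were given by mouth the small-intestinal content of donor mice that had received AOS at 10 mg/kg (A10-FMT) or none (Con-FMT). The donor content was pooled within each donor group, so each transfer rests on a single inoculum. No group received the diet without STZ, STZ without the diet, or a transfer on a regular diet, so these cannot be told apart from their combinations. Replicates are the separate liver samples of the labels. Where nothing ties them to separate animals, p-values measure the spread between these samples.

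Triglyceride is made on a glycerol backbone. Glycerol-3-phosphate acyltransferases such as Gpam add a fatty acyl chain, the Agpat enzymes add the next to give phosphatidate, lipins remove the phosphate to give diacylglycerol, and a DGAT enzyme adds the last chain. In liver the product is stored in lipid droplets, opened by lipases led by Pnpla2, or loaded by Mttp onto apolipoprotein B and secreted as very low density lipoprotein (VLDL). Several of these genes are known to follow feeding, fasting and insulin.

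Promoter windows are shown for Lpin1 and Pnpla3, the genes with the widest range between groups, and for Lpin2, which was higher with AOS in both comparisons of AOS and holds the matches to a searched motif. Each runs from 250 bases before to 50 bases after the annotated start of the gene, on the strand of the gene, from RefSeq on GRCm38.p6. The windows are Lpin1 at chr12:16610917-16611216 (minus strand), Lpin2 at chr17:71183282-71183581 (plus strand, the first of 3 starts) and Pnpla3 at chr15:84167566-84167865 (plus strand). Capitals mark a match to a searched motif.
Lpin1: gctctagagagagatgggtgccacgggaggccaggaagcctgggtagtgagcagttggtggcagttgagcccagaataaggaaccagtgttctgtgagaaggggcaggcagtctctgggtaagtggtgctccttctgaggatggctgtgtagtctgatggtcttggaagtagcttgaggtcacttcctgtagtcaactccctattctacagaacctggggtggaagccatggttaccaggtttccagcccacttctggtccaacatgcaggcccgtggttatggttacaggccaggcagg
Lpin2: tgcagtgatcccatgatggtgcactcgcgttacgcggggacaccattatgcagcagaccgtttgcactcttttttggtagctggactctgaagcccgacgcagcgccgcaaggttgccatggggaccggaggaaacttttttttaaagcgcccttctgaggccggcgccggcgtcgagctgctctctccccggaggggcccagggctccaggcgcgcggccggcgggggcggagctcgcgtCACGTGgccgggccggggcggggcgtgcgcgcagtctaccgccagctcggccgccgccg
Pnpla3: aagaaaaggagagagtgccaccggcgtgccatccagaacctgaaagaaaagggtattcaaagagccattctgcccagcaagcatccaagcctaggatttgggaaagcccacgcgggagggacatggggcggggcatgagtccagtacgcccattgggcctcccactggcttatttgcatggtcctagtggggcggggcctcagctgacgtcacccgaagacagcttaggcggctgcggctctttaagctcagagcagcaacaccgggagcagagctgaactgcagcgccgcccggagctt

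Windows were found for 8 of the 10 genes, 11 windows in all, and 4 motifs were searched on both strands. The E-box CACGTG, the palindrome bound by clock and other basic helix-loop-helix proteins, lies in the printed Lpin2 window. It starts 9 bases before the RefSeq start of that window. This RefSeq start lies inside the Lpin2 span given below, which is from GENCODE and begins earlier. The E-box was held by 1 of the 11 windows and by 7.15% of 32851 RefSeq windows of the same length. The forkhead motif GTAAACA, also held by 1 of the 11 windows, lies at another start of Lpin2, 138 bases before that start, and was in 3.65% of all windows. The D-box TTATGNAA (3.38% of all windows) and the sterol regulatory element TCACNCCAC (1.24%) were in none of the 11. A match or its lack is a description of these letters only. The genes without a window are Dgat1 and Dgat2.

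Values are reads scaled for transcript length and mapped reads (RPKM), so that a level can be set beside that of another gene or library. Library totals ran from 692818 to 806937 RPKM, and the depth relative to the mean library, estimated from the steps between low values of 35 genes, ran from 0.949 to 1.04. Hepatocyte markers were high in every library (sums of 36700 to 56900 RPKM). Con-FMT replicate 3 held pancreatic acinar markers at 18400 RPKM, 2.63% of its total, against 14.1 to 49.9 RPKM in the other 17 libraries, and its adipocyte markers summed to 3.87 RPKM against at most 0.6 elsewhere. Con replicate 3 and A10 replicate 3 lay between the other libraries of their groups far more often than other replicates did: where the other Con libraries differed at least 1.5-fold (949 genes), the level in Con replicate 3 was between them for 92.0% of genes, at a median of 0.486 of the way from replicate 1 to replicate 2. The share for A10 replicate 3 was 91.6% of 691 genes, and in the 16 other libraries it was 32.7 to 72.1%. For A10 replicate 3 the median position was 0.641. Whether these libraries are samples of their own was not tested. If they are not, Con and A10 hold 2 independent libraries each, and their SDs and the pooled spread are too small. The calls of named genes that these 2 libraries decide, and the counts over the members and lists, are given with and without them, and the counts of members in the comparisons with Con-FMT also without Con-FMT replicate 3. In bulk RNA, fewer cells of a type and less RNA per cell cannot be told apart.

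Groups were compared with limma on log2(RPKM + 1), with Benjamini-Hochberg adjustment over the 10204 genes whose mean reached 1 RPKM, and a change was called at an adjusted p below 0.05. Of the 10 genes, 9 passed this minimum, and Pnpla3 did not. These genes and the lists of other pathway genes were chosen with earlier results of these data known. Their counts beside the share of all genes are therefore descriptions only. Log2 changes are on the log2(RPKM + 1) scale and understate the change of low genes. Groups without overlap are common in these data. Over all tested genes the share was 36.8% in HS against Con and 43% in HS+A10 against A10. It was 37.4% in A10-FMT against HS, 35% in Con-FMT against HS and 31.5% in A10-FMT against Con-FMT. In HS+A10 against HS it was 27.4%, and in A10 against Con 24.8%.

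**Figure D1:**
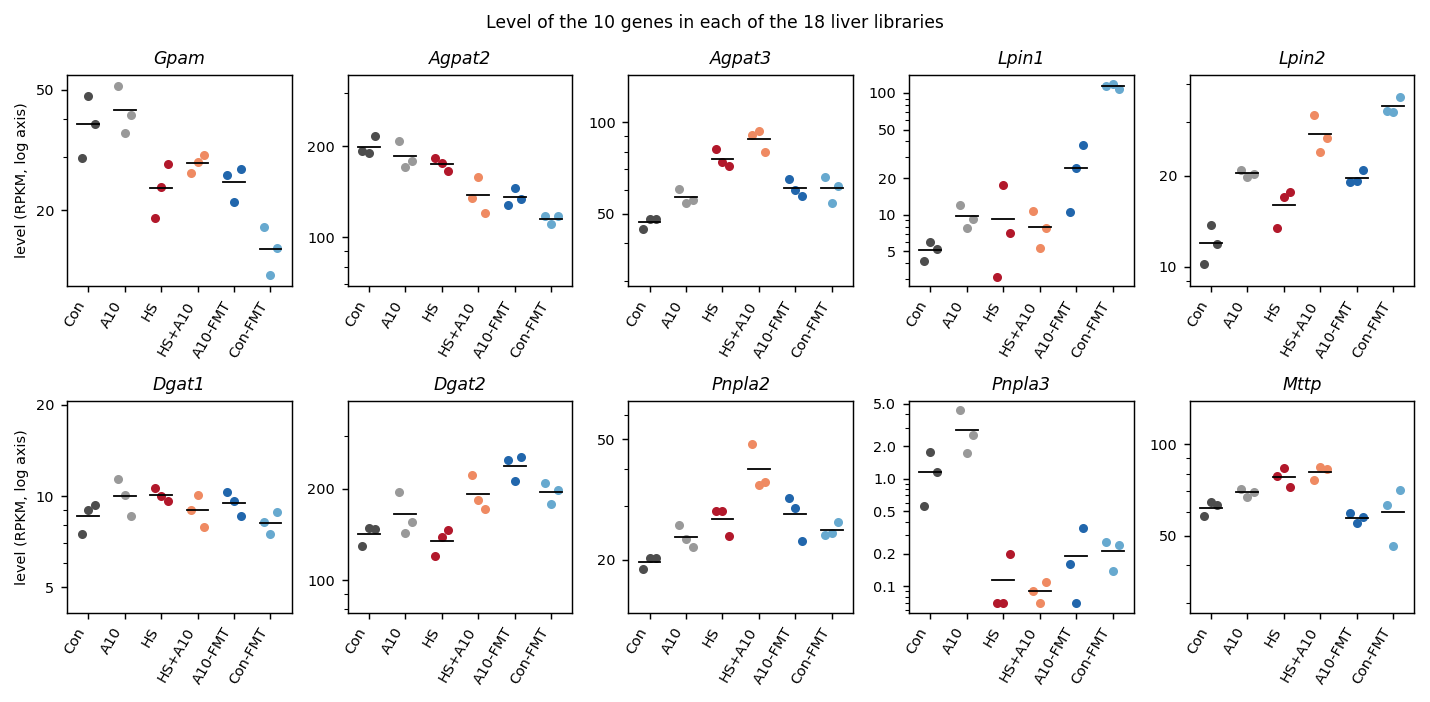
Level of each of the 10 genes (RPKM, log axis) in the 18 libraries, by group; points are libraries and bars are group means of 3. Pnpla3 is at 0.56 RPKM or more in the 6 Con and A10 libraries and at 0.35 or less in the other 12, and Lpin1 stands at 108 RPKM or more in Con-FMT only.

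RPKM values are scaled for gene length, so levels can be compared between genes. In Con liver the mean was highest for Agpat2 (199.7 ± 13.9 RPKM, SD, n = 3) and next for Dgat2 (141.9 ± 10.6), with no overlap of their libraries. Mttp (61.9 ± 3.38), Agpat3 (46.8 ± 2.09) and Gpam (38.75 ± 8.94) followed, and the libraries of Agpat3 and Gpam overlapped. Pnpla2 (19.72 ± 0.993), Lpin2 (11.93 ± 1.75), Dgat1 (8.62 ± 0.975), Lpin1 (5.12 ± 0.874) and Pnpla3 (1.16 ± 0.605) made up the lower ranks, each apart from the next. Dgat2 stood above Agpat2 in HS+A10, A10-FMT and Con-FMT, again with no overlap. Lpin1 was the gene that moved most in this order, from rank 9 in Con to rank 3 in Con-FMT, where its libraries overlapped those of Agpat2 above and lay apart from those of Agpat3 below.

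Livers with and without high-fat diet and STZ were compared in the absence of AOS (HS against Con) and with AOS in both arms (HS+A10 against A10). These comparisons share no library. Agpat3 and Pnpla2 were higher and Gpam was lower on diet and STZ in both. Agpat2 was called lower in the AOS arms and was lower without a call in HS against Con. Pnpla3 was listed at far lower values in every diet and STZ library. In HS against Con, 4 of the 9 tested genes were called (3 higher, 1 lower), beside 17.7% of all genes tested (1618 higher, 191 lower). In HS+A10 against A10 the count was 5 of 9 (3 higher, 2 lower), beside 20.9% of all genes (1388 higher, 743 lower). All 4 genes called in the former were called in the same direction in the latter. Stellate cell and fibroblast markers, over 5 genes, summed to 110 to 173 RPKM in HS and 111 to 121 in HS+A10 against 70.4 to 81.9 in Con and 80.5 to 89.3 in A10. Endothelial markers, over 4 genes, summed to 49 to 58.9 RPKM in HS+A10 against 34.8 to 43.9 in A10, and hepatocyte markers, over 6 genes, to 45500 to 48700 against 49100 to 55800. Such sums weigh most on their highest gene. Over the 18 libraries Dcn ran from 61.4 to 140 RPKM, against at most 19.6 for any other stellate or fibroblast marker. Alb ran from 21300 to 37300 RPKM, against at most 10700 for any other hepatocyte marker. The part of these markers in the results was not tested.

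Gpam (chr19:55067268-55127238, minus strand) encodes the mitochondrial acyltransferase that commits acyl chains to glycerolipid synthesis, and insulin is known to raise its transcript. It was at 29.84, 47.71 and 38.7 RPKM in Con against 18.95, 23.93 and 28.48 RPKM in HS, and at 51.58, 36.05 and 41.41 RPKM in A10 against 26.57, 28.82 and 30.57 RPKM in HS+A10. Groups did not overlap within either comparison, although the lowest Con library and the highest HS library differed by little. Gpam fell by 0.67 on the log2 scale in HS (SE 0.183, adjusted p = 0.0214) and by 0.56 in HS+A10 (SE 0.183, adjusted p = 0.0421). Without Con replicate 3 and A10 replicate 3 neither passed the threshold (adjusted p = 0.0824 and 0.111).

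Agpat2 (chr2:26593057-26604417, minus strand), the acyltransferase whose loss in mice and people causes lipodystrophy with fatty liver, was at 208.16, 170.6 and 179.33 RPKM in A10 and 134.74, 158.8 and 120.45 RPKM in HS+A10. The groups did not overlap, and it fell by 0.43 on the log2 scale (SE 0.102, adjusted p = 0.00774), a call kept in all 17 alternatives. In HS its log2 change against Con was -0.19 (95% interval -0.41 to 0.03, adjusted p = 0.199). The HS libraries also lay below those of Con. With library medians set equal that change was -0.38 and was called (adjusted p = 0.0315). The difference between the effects of diet and STZ with and without AOS was -0.24 (95% interval -0.55 to 0.06, limma adjusted p = 0.486).

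Agpat3 (chr10:78269178-78352489, minus strand), an acyltransferase that makes phosphatidate and also acts on other lysophospholipids, was measured at 44.39, 48.06 and 47.94 RPKM in Con and at 81.9, 73.87 and 71.76 RPKM in HS. In the AOS arms it was at 60.42, 54.08 and 55.64 RPKM in A10 and 91.08, 93.4 and 79.81 RPKM in HS+A10. Every library on diet and STZ was above every library of its own control. The log2 change was 0.68 (SE 0.0892, limma adjusted p = 3.63e-04) in HS against Con and 0.62 (SE 0.0892, adjusted p = 2.97e-04) in HS+A10 against A10. Both calls were kept in each alternative setting run on single genes, 18 and 17 of them.

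Lpin2 (chr17:71182560-71249817, plus strand), the main phosphatidate phosphatase of mouse liver, changed by 0.40 in HS (adjusted p = 0.0309) and by 0.41 in HS+A10 (adjusted p = 0.0226). Its HS libraries (13.46, 17.02 and 17.62 RPKM) overlapped those of Con (10.23, 13.72 and 11.85 RPKM). Both Lpin2 calls were lost without Con replicate 3 and A10 replicate 3 (adjusted p = 0.1 and 0.0841).

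Pnpla2 (chr7:141455198-141460743, plus strand) encodes adipose triglyceride lipase, which takes the first fatty acid off stored triglyceride. Its levels were 18.57, 20.3 and 20.28 RPKM in Con and 29.04, 28.98 and 23.94 RPKM in HS. They were 26, 23.46 and 22.08 RPKM in A10 and 48.27, 35.4 and 36.19 RPKM in HS+A10. Neither pair of groups overlapped, and HS+A10 replicate 1 was the highest library of all. The log2 change was 0.45 (SE 0.129, adjusted p = 0.0281) in HS against Con and 0.71 (SE 0.129, adjusted p = 0.00152) in HS+A10 against A10. The former call was lost under median scaling (adjusted p = 0.165) and without Con replicate 3 and A10 replicate 3 (0.0786), while the latter was kept in all 17 alternatives.

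Pnpla3 (chr15:84167837-84187236, plus strand) encodes a lipid droplet protein related to Pnpla2 whose transcript is known to rise with carbohydrate feeding and insulin. It was at 0.56, 1.77 and 1.15 RPKM in Con and at 4.33, 1.74 and 2.55 RPKM in A10. The levels were 0.07, 0.07 and 0.2 RPKM in HS and 0.09, 0.07 and 0.11 RPKM in HS+A10. They were 0.16, 0.07 and 0.35 RPKM in A10-FMT and 0.26, 0.14 and 0.24 RPKM in Con-FMT. The 6 Con and A10 libraries, with a median of 1.75 RPKM, did not overlap the 12 on diet and STZ, with a median of 0.125 RPKM. With no minimum level, the log2 change was -0.92 in HS against Con (adjusted p = 0.0154) and -1.78 in HS+A10 against A10 (adjusted p = 2.08e-04). With no minimum level and without Con replicate 3 and A10 replicate 3, the former no longer passed (adjusted p = 0.0725) and the latter did (adjusted p = 0.00305). Its HS libraries overlapped those of both transfers. The table gives no read counts behind these low levels, so no counting interval was set.

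The other members showed no call in these comparisons. Mttp (chr3:138089854-138144968, minus strand), the transfer protein that lipidates apolipoprotein B, was at 58.11, 64.59 and 63 RPKM in Con and 78.44, 83.36 and 72.51 RPKM in HS, with no overlap and a log2 change of 0.33 (SE 0.115, adjusted p = 0.059). In HS+A10 against A10 its log2 change was 0.22 (adjusted p = 0.197). Dgat2 (chr7:99153658-99182719, minus strand), the DGAT enzyme tied to newly made fatty acids, had log2 changes of -0.07 (95% interval -0.35 to 0.20) and 0.23 (-0.04 to 0.50). Dgat1 (chr15:76502015-76511953, minus strand), its unrelated counterpart, stayed between 7.5 and 11.35 RPKM in all 18 libraries and was called in none of the 8 comparisons. Lpin1 (chr12:16535669-16610966, minus strand) varied so much within HS, from 3.11 to 17.41 RPKM, that its change of 0.49 had an interval of -0.47 to 1.44.

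The median log2 change over the 9 genes was 0.33 in HS against Con, beside 0.14 over all 10204 genes, and 0.22 in HS+A10 against A10, beside 0.04. With library medians set equal, 1 of the 9 was called higher and 2 lower in HS against Con, beside 398 higher and 486 lower of all genes. Of the 9, Agpat3 was called higher, and Gpam and Agpat2 were called lower. In HS+A10 against A10 the split was 3 higher and 2 lower under either scaling. Over all genes it was 1243 higher and 1151 lower there with medians set equal. Without Con replicate 3 and A10 replicate 3, 1 of the 9 was called in HS against Con and 3 in HS+A10 against A10. Over all genes those fits called 644 higher and 56 lower, and 733 higher and 431 lower.

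**Figure D2:**
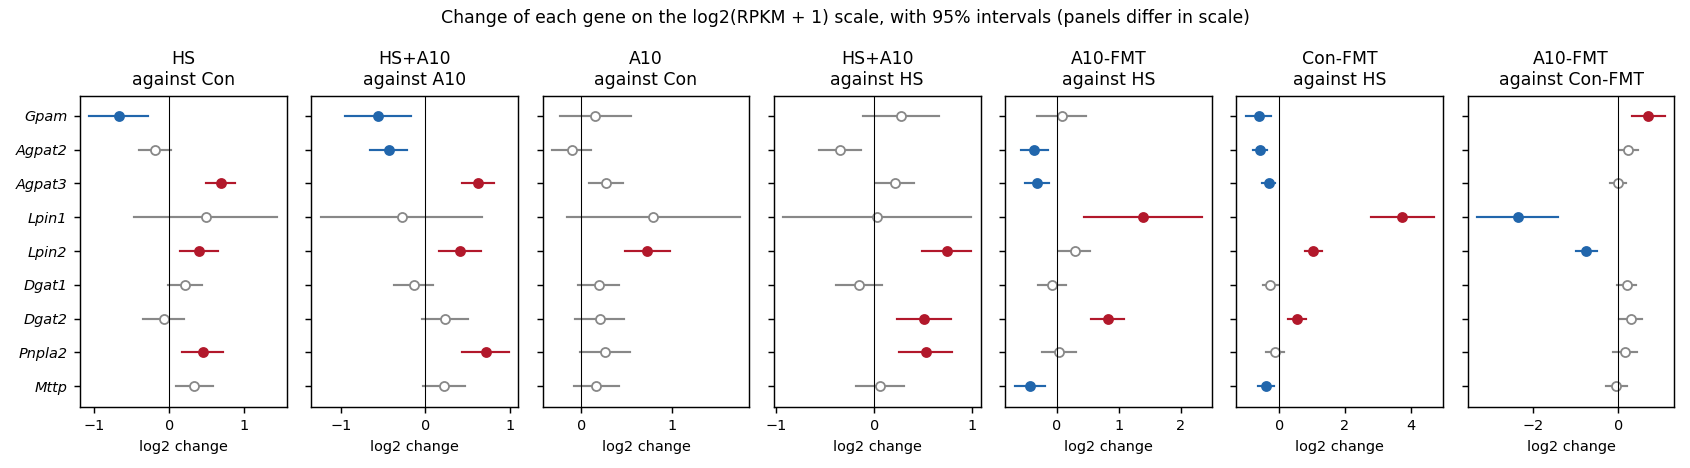
Log2 change on the log2(RPKM + 1) scale (horizontal axis, scale differing by panel) of the 9 tested genes in 7 comparisons, with 95% intervals from limma; filled points are called, red higher and blue lower. Agpat3 is raised by 0.68 and 0.62 in the first 2 panels, and Lpin1 by 3.75 in Con-FMT against HS.

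Livers with and without AOS were compared on diet and STZ (HS+A10 against HS) and without them (A10 against Con). Lpin2 was higher with AOS in both, and Dgat2 and Pnpla2 were higher on diet and STZ. HS+A10 against HS gave 3 called genes of 9, all higher, beside 7.32% of all genes (301 higher, 446 lower). A10 against Con gave 1 of 9, higher, beside 0.0686% of all genes (7 genes). Endothelial markers over 4 genes summed to 49 to 58.9 RPKM in HS+A10 against 36.7 to 43.3 in HS, and hepatocyte markers to 45500 to 48700 against 37400 to 42600. Their part was not tested.

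Lpin2 was at 31.8, 24 and 26.55 RPKM in HS+A10 and 13.46, 17.02 and 17.62 RPKM in HS. Without diet and STZ it was at 20.91, 19.79 and 20.27 RPKM in A10 and 10.23, 13.72 and 11.85 RPKM in Con. In each pair the 3 libraries with AOS lay above the 3 without. The log2 change was 0.74 on diet and STZ (SE 0.117, adjusted p = 0.00394) and 0.73 without them (SE 0.117, adjusted p = 0.0245), and the difference of these effects was 0.0099 (95% interval -0.34 to 0.36). The call in A10 against Con was kept in 9 of 17 alternatives and lost without Con replicate 3 and A10 replicate 3 (adjusted p = 0.488), and the call on diet and STZ was lost only in a fit of the compared groups alone (adjusted p = 0.0639).

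Dgat2 was at 221.46, 183.9 and 172.06 RPKM in HS+A10 and 119.92, 138.58 and 146.1 RPKM in HS, so that the groups were apart. The log2 change was 0.51 (SE 0.128, adjusted p = 0.0294). Pnpla2 rose by 0.52 (SE 0.129, adjusted p = 0.0253), from the HS and HS+A10 levels given above. Leaving out HS+A10 replicate 1, the highest of its group for both genes, ended both calls (adjusted p = 0.14 for Dgat2 and 0.123 for Pnpla2), and a fit of the compared groups alone left none of the 3. Without Con replicate 3 and A10 replicate 3, which enter through the pooled spread, adjusted p was 0.0602 for Dgat2 and 0.0528 for Pnpla2. Agpat2 was lower in every HS+A10 library than in any HS library, at a log2 change of -0.35 and an adjusted p of 0.0509. The difference between these responses to AOS was called by limma in 0 of the 9 genes, beside 0.0098% of all genes (1 gene). At an unadjusted p below 0.05, 1 of the 9 (Dgat1) and 1320 of all 10204 genes passed, with a difference of the Dgat1 effects of -0.35 (adjusted p = 0.361).

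The transfers were compared with HS, their shared control, and with each other. In Con-FMT, Lpin1 and Lpin2 were the genes raised most, Dgat2 was also higher, and Gpam, Agpat2, Agpat3 and Mttp were lower. In A10-FMT, Dgat2 and Lpin1 were higher and Agpat2, Agpat3 and Mttp lower. Con-FMT against HS gave 7 of 9 called (3 higher, 4 lower), beside 23.6% of all genes (470 higher, 1943 lower). A10-FMT against HS gave 5 of 9 (2 higher, 3 lower), beside 23.1% (213 higher, 2145 lower). A10-FMT against Con-FMT gave 3 of 9 (1 higher, 2 lower), beside 18.8% (686 higher, 1228 lower). Since these comparisons share libraries, their values are set side by side. With library medians set equal, 3 were higher and 2 lower in Con-FMT against HS, 3 higher and 0 lower in A10-FMT against HS, and 4 higher and 2 lower in A10-FMT against Con-FMT. Over all genes that scaling gave 858 higher and 1240 lower, 639 and 516, and 1302 and 958, in the same order. Without Con-FMT replicate 3, the library with pancreatic markers, 7 and 3 of the 9 were called in the comparisons that hold it. Over all genes 425 were then higher and 1831 lower in Con-FMT against HS, and 651 and 982 in A10-FMT against Con-FMT. The counts without Con replicate 3 and A10 replicate 3 were 3 higher and 4 lower in Con-FMT against HS, 1 higher and 3 lower in A10-FMT against HS, and 1 higher and 2 lower in A10-FMT against Con-FMT. Over all genes they were 382 higher and 1597 lower, 160 and 1676, and 505 and 974, in the same order. Kupffer cell and macrophage markers, over 5 genes, summed to 37.4 to 46.2 RPKM in A10-FMT against 55.6 to 96.7 in HS and 43.5 to 84 in Con-FMT. Stellate cell and fibroblast markers summed to 86.1 to 109 RPKM in A10-FMT, and to 85.1 to 99.7 in Con-FMT, against 110 to 173 in HS. Hepatocyte markers summed to 43200 to 54200 RPKM in A10-FMT against 37400 to 42600 in HS. The part of these markers was not tested.

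Of the acylating enzymes, Agpat2 was lower than in HS in both transfers and Gpam in Con-FMT. Agpat2 was at 182.93, 176.04 and 165.58 RPKM in HS, 128.44, 145.73 and 133.99 RPKM in A10-FMT and 117.79, 110.57 and 117.79 RPKM in Con-FMT, with no overlap between any 2 of these groups. The log2 change against HS was -0.59 in Con-FMT (SE 0.102, adjusted p = 9.77e-04), kept in all 18 alternatives, and -0.36 in A10-FMT (adjusted p = 0.0207), kept in 11. Gpam was at 17.61, 12.26 and 15.04 RPKM in Con-FMT, below every other library of the series, and at 26.12, 21.34 and 27.33 RPKM in A10-FMT. It fell by 0.63 on the log2 scale in Con-FMT against HS (SE 0.183, adjusted p = 0.0213) and was higher by 0.71 in A10-FMT than in Con-FMT (SE 0.183, adjusted p = 0.0146), kept in 13 and 15 of 18 alternatives. In A10-FMT against HS the Gpam change was 0.08 (95% interval -0.31 to 0.46).

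Lpin1, a phosphatidate phosphatase that also acts as a transcriptional coactivator and is known to rise on fasting, was at 3.11, 17.41 and 7.14 RPKM in HS. It was at 114.12, 118.14 and 108.43 RPKM in Con-FMT and at 10.5, 24.34 and 37.24 RPKM in A10-FMT. The Con-FMT libraries stood together and far above every other library of the series, whereas those of A10-FMT were spread and overlapped HS. Against HS the mean was 12.3-fold in Con-FMT, with a log2 change of 3.75 (SE 0.449, adjusted p = 7.71e-05), and 2.61-fold in A10-FMT, with a log2 change of 1.39 (SE 0.449, adjusted p = 0.0365). A10-FMT was lower than Con-FMT by a log2 change of -2.36 (SE 0.449, adjusted p = 0.00234). The 2 comparisons with Con-FMT were kept in all 18 alternatives, while A10-FMT against HS was kept in 8 of 18. Without HS replicate 1, the lowest HS library, that change was 0.87 (adjusted p = 0.14), and without Con replicate 3 and A10 replicate 3 its adjusted p was 0.0616.

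Lpin2 was at 32.78, 32.38 and 36.32 RPKM in Con-FMT and at 18.98, 19.16 and 20.82 RPKM in A10-FMT. All Con-FMT libraries lay above all of HS and A10-FMT. The log2 change was 1.04 in Con-FMT against HS (SE 0.117, adjusted p = 5.07e-05) and -0.75 in A10-FMT against Con-FMT (SE 0.117, adjusted p = 6.13e-04), and both were kept in all 18 alternatives. In A10-FMT against HS it was 0.29 (adjusted p = 0.0862), and with library medians set equal 0.47 (adjusted p = 0.0176).

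The group mean of Dgat2 was highest in A10-FMT (238.4 ± 23.4 RPKM, SD, n = 3), at 249.16, 211.63 and 254.53 RPKM, and was at 208.43, 177.69 and 198.55 RPKM in Con-FMT. Every library of both transfers was above every HS library. The log2 change against HS was 0.82 in A10-FMT (SE 0.128, adjusted p = 9.98e-04) and 0.53 in Con-FMT (SE 0.128, adjusted p = 0.00838), both kept in all 18 alternatives. The difference between the transfers was 0.29 (adjusted p = 0.131), and with library medians set equal 0.37 (adjusted p = 0.0367).

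Agpat3 and Mttp were lower in each transfer than in HS. Agpat3 changed by -0.32 in A10-FMT (57.21 to 64.95 RPKM, adjusted p = 0.0199), and the change with Con-FMT (54.41 to 66 RPKM) was also -0.32 (adjusted p = 0.0177). Mttp changed by -0.44 in A10-FMT (adjusted p = 0.0152), at 59.55, 55.1 and 57.43 RPKM, and by -0.39 in Con-FMT (adjusted p = 0.0224), at 63.28, 46.22 and 70.67 RPKM. All of these libraries were below those of HS for both genes. Over all genes the median log2 change was -0.16 in A10-FMT against HS and -0.12 in Con-FMT against HS, and with library medians set equal neither gene passed in either comparison (adjusted p = 0.282 and 0.0582 for Agpat3, 0.118 and 0.0551 for Mttp). Leaving out Con-FMT replicate 2, the lowest library for Mttp, gave a Mttp change of -0.22 (adjusted p = 0.0871). Pnpla2 was at 23.09 to 32.07 RPKM in A10-FMT, was at 24.14 to 26.6 RPKM in Con-FMT, and its log2 changes against HS were 0.04 (95% interval -0.24 to 0.31) and -0.12 (-0.39 to 0.16).

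**Figure D3:**
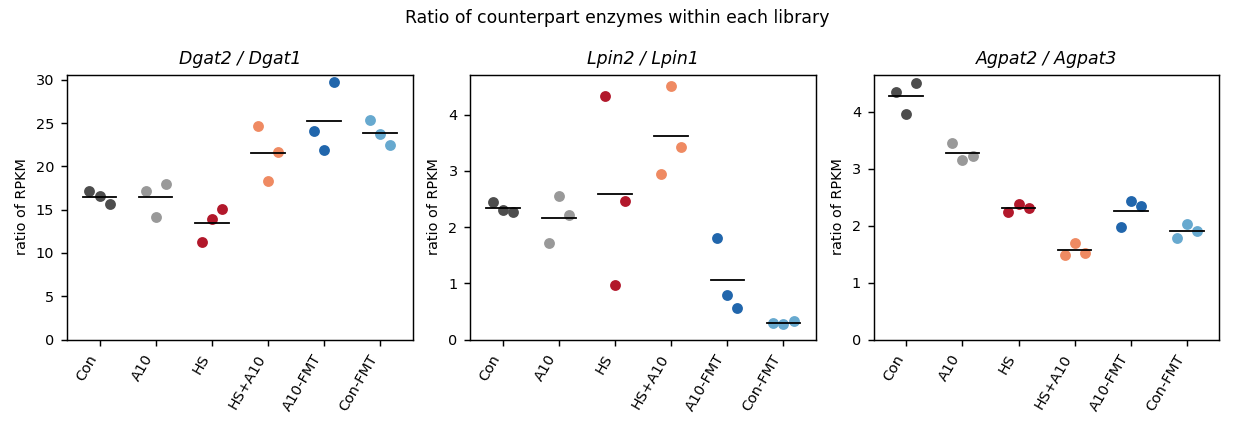
Ratio of RPKM between paralogs or counterpart enzymes within each library (vertical axis from 0), by group; points are libraries and bars group means of 3. Lpin2 over Lpin1 is 2.27 or more in the 3 Con libraries and 0.335 or less in the 3 Con-FMT libraries.

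Ratios within a library do not depend on library scaling. Dgat2 over Dgat1 was 11.3 to 15.1 in HS and 15.7 to 17.2 in Con, against 18.3 to 24.7 in HS+A10, 21.9 to 29.7 in A10-FMT, with Con-FMT at 22.5 to 25.4. The libraries of HS+A10, A10-FMT, Con-FMT and Con were above those of HS without overlap on this measure, while A10, at 14.2 to 18, overlapped HS. Lpin2 over Lpin1 was 2.27 to 2.44 in Con, 0.978 to 4.33 in HS, 0.559 to 1.81 in A10-FMT, and Con-FMT stood at 0.274 to 0.335. Lpin1 thus exceeded Lpin2 in every Con-FMT library. It also did so in A10-FMT replicates 2 (0.787) and 3 (0.559) and in HS replicate 2 (0.978). HS and A10-FMT overlapped. Agpat2 over Agpat3 was 3.96 to 4.5 in Con and 3.15 to 3.45 in A10, against 1.48 to 2.44 in the 12 libraries on diet and STZ, with no overlap.

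The other genes of the pathway were a list of 44, all found, of which 41 passed the minimum. In HS against Con 11 were higher and 2 lower, beside 17.7% of all genes called (1618 higher, 191 lower). In HS+A10 against A10 16 were higher and 5 lower, beside 20.9% (1388 higher, 743 lower). In both, 11 were called the same way and Tm6sf2, which aids the lipidation of VLDL, the opposite way. The difference between the effects in these comparisons was called by limma in 0 of the 41, Tm6sf2 included, beside 0.0098% of all genes. Among those higher in both were Gpat4, the acyltransferase of the endoplasmic reticulum (21.35, 21.65 and 21.84 RPKM in Con, 32.13, 29.04 and 34.14 RPKM in HS, log2 change 0.53, adjusted p = 0.00688), the glycerol channel Aqp9 (log2 changes of 0.45 and 0.69) and Apob (0.33 and 0.43). With library medians set equal the split turned in HS against Con, to 1 higher and 4 lower, and was 15 higher and 7 lower in HS+A10 against A10. Over all genes it was 398 higher and 486 lower, and 1243 higher and 1151 lower. Under that scaling Gpat4, Aqp9, Apob and Tm6sf2 did not pass in HS against Con (adjusted p = 0.0677, 0.0843, 0.264 and 0.107). Without Con replicate 3 and A10 replicate 3, 5 were higher and 0 lower in HS against Con, and 11 higher and 0 lower in HS+A10 against A10. Over all genes 644 were higher and 56 lower, and 733 higher and 431 lower, in those fits. There Apob (adjusted p = 0.116) and Tm6sf2 (0.0769) no longer passed in HS against Con, nor Tm6sf2 in HS+A10 against A10 (0.0572).

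Mogat1, which makes diacylglycerol from monoacylglycerol, was near 0 in Con and A10 (0, 0.2 and 0.06 RPKM in Con, 0.33, 0.21 and 0 RPKM in A10) and measured at 2.07, 1.09 and 0.67 RPKM in HS and 4.27, 5.29 and 3.1 RPKM in HS+A10. The groups did not overlap within either comparison. The gene passed the minimum through its level in HS+A10, so its calls, which are in the counts above, are given no test here. Ces1d, a carboxylesterase that hydrolyses triglyceride in the endoplasmic reticulum, was at 189.34, 333.02 and 263.21 RPKM in Con and 89.22, 124.25 and 99.73 RPKM in HS, a log2 change of -1.29 (adjusted p = 0.0131). It stood at 195.8, 229.5 and 179.84 RPKM in A10-FMT (log2 change against HS 0.95, adjusted p = 0.04) and at 104.76, 48.78 and 144.38 RPKM in Con-FMT. Ces1d has close relatives in the same gene cluster, and how the counting divided reads among them is not given in the sources used here. Neither of the Ces1d calls given above passed without Con replicate 3 and A10 replicate 3. The limma adjusted p was then 0.0592 in HS against Con and 0.0662 in A10-FMT against HS. Ces1d was also called in A10-FMT against Con-FMT (log2 change 1.14, adjusted p = 0.0197). That call was kept without Con replicate 3 and A10 replicate 3 (adjusted p = 0.0385). It was also kept with library medians set equal (0.0102) and without Con-FMT replicate 3 (0.00464).

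The supply of acyl-CoA and glycerol was called in 2 of 7 genes in HS against Con, both higher, beside 17.7% of all genes, and in 6 of 7 (4 higher, 2 lower) in HS+A10 against A10, beside 20.9%. With library medians set equal the counts were 0 higher and 1 lower, and 3 higher and 3 lower. They were 2 higher and 0 lower, and 3 higher and 0 lower, without Con replicate 3 and A10 replicate 3. The splits over all genes in each of these settings are given above. Acsl1, the main acyl-CoA synthetase of liver, had a mean of 599.1 RPKM in HS+A10 against 296.9 in A10 (log2 change 1.01, adjusted p = 0.00331), whereas Acsl3 (-1.04, adjusted p = 0.0174) and Acsl5 (-0.60, adjusted p = 0.0172) fell. Neither fall passed without Con replicate 3 and A10 replicate 3 (adjusted p = 0.0654 and 0.062). Gpd1, which makes glycerol-3-phosphate, rose in both comparisons (0.51, adjusted p = 0.0141, and 0.63, adjusted p = 0.00283), although in HS against Con it did not pass with library medians set equal (adjusted p = 0.0612). Mgll, the monoacylglycerol lipase, rose in both as well (0.55, adjusted p = 0.0243, and 0.61, adjusted p = 0.0113), and the microsomal esterase Aadac fell in both (-0.33, adjusted p = 0.0476, and -0.38, adjusted p = 0.0225). None of these 4 calls passed without Con replicate 3 and A10 replicate 3 (adjusted p = 0.0764 and 0.0603 for Mgll, 0.155 and 0.0735 for Aadac), and with library medians set equal Mgll did not pass in HS against Con (adjusted p = 0.13). Plpp2 was lower in HS+A10 than in HS (-0.67, adjusted p = 0.0142), Gpat3 lower in Con-FMT than in HS (-1.09, adjusted p = 0.0215), and Hilpda, another inhibitor of Pnpla2, lower in A10-FMT than in HS (-0.78, adjusted p = 0.00756). Gpat3 was at 7.78, 2.93 and 3.28 RPKM in HS and 1.52, 1.41 and 1.51 RPKM in Con-FMT. Its call was lost with quantile normalization (limma adjusted p = 0.0547) and kept with library medians set equal (0.0334).

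**Figure D4:**
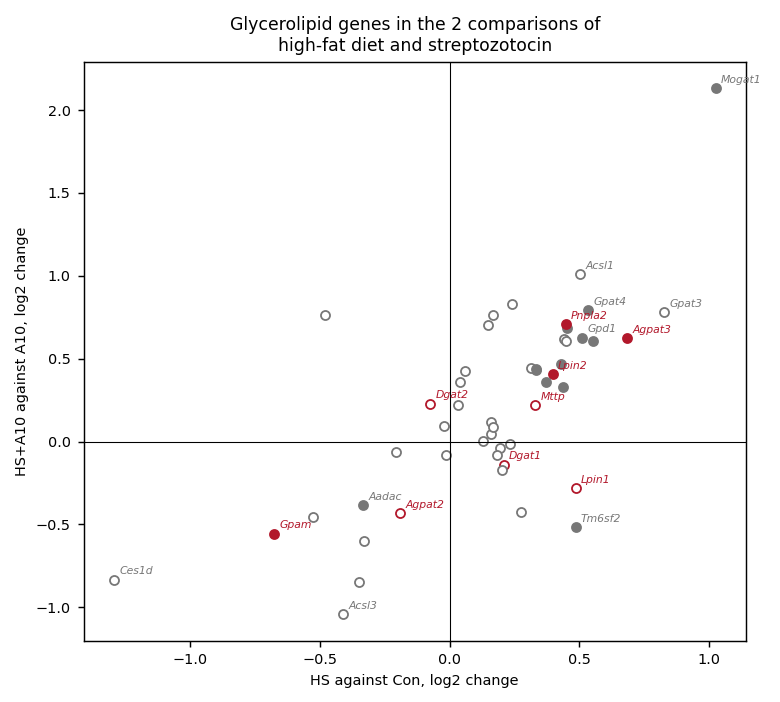
Log2 change of the tested genes of the pathway in HS against Con (horizontal axis) and HS+A10 against A10 (vertical axis), which share no library; red points are the 9 members tested, grey points the 41 other genes, and filled points were called in both. Tm6sf2 is the only filled point with opposite signs, at 0.49 and -0.52, and the difference between its changes was not called.

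The VLDL assembly and export genes, 12 in the list, were 5 higher and 0 lower in HS against Con, beside 17.7% of all genes called (1618 higher, 191 lower). They were 4 higher and 1 lower in HS+A10 against A10, beside 20.9% (1388 higher, 743 lower). In A10-FMT against HS 8 of the 12 were lower and 0 higher, beside 23.1% of all genes (213 higher, 2145 lower). The median log2 change there was -0.34, beside -0.16 over all genes. In Con-FMT against HS 1 was lower, beside 23.6% (470 higher, 1943 lower). Among the lower in A10-FMT were Apob (374.94, 305.92 and 287.6 RPKM against 422.28, 453.96 and 445.41 RPKM in HS, log2 change -0.46, adjusted p = 0.00663), the coat proteins Sec24c (-0.41, adjusted p = 0.0169) and Sec23a (-0.30, adjusted p = 0.0359), which form the vesicles that leave the endoplasmic reticulum, and Tm6sf2 (-0.78, adjusted p = 0.00181). With library medians set equal, 4 of the 12 were lower in A10-FMT and the 5 higher calls in HS against Con became 0 higher and 1 lower. Over all genes that scaling gave 639 higher and 516 lower, and 398 higher and 486 lower. Sec24c and Sec23a did not pass under that scaling (adjusted p = 0.159 and 0.361). The counts in these 4 comparisons, in the order given and without Con replicate 3 and A10 replicate 3, were 1, 2, 0 and 0 higher and 0, 0, 5 and 1 lower. Over all genes they were 644, 733, 160 and 382 higher and 56, 431, 1676 and 1597 lower. Without those libraries Sec23a did not pass in A10-FMT against HS (adjusted p = 0.0616). P4hb, the partner subunit of Mttp, was also lower (log2 change -0.46, adjusted p = 0.00309) and was picked out after its values were seen. It serves the folding of many other proteins as well. Compared directly, A10-FMT against Con-FMT gave 0 higher and 3 lower of the 12, beside 18.8% of all genes (686 higher, 1228 lower). The median log2 change was -0.13 there, and -0.055 with library medians set equal. The counts stayed at 0 and 3 under that scaling and without Con replicate 3 and A10 replicate 3. Over all genes they were 1302 higher and 958 lower, and 505 higher and 974 lower.

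Among 13 lipolysis genes, 3 were lower and 0 higher in Con-FMT against HS, beside 23.6% of all genes (470 higher, 1943 lower). With library medians set equal 2 were lower and 1 higher, and without Con replicate 3 and A10 replicate 3, 2 were lower and 0 higher. Over all genes those fits gave 858 higher and 1240 lower, and 382 higher and 1597 lower. Among the lower lipolysis genes was G0s2, the inhibitor of Pnpla2, at 8.76, 3.24 and 4.64 RPKM against 92.1, 31.61 and 18.46 RPKM in HS (log2 change -2.66, SE 0.582, adjusted p = 0.00475). In A10-FMT G0s2 was at 29.29, 28.86 and 9.76 RPKM, higher than in Con-FMT by 1.79 on the log2 scale (adjusted p = 0.043). That call was lost without Con replicate 3 and A10 replicate 3 (adjusted p = 0.0715) and without Con-FMT replicate 3 (0.0927). The phosphatidate phosphatase Plpp3 was at 64.25, 54.29 and 56.35 RPKM in A10-FMT and 65.94, 72.38 and 70.51 RPKM in HS+A10 against 43.52, 38.6 and 31.71 RPKM in HS, with log2 changes of 0.61 (adjusted p = 0.00914) and 0.87 (adjusted p = 0.00418). In A10 against Con 0 of the 41 were called, by limma at an adjusted p below 0.05, beside 7 of all 10204 genes. At an unadjusted p below 0.05, 8 of the 41 passed, beside 1418 of all 10204 genes.

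Genes whose log2 level ran most like a member over the 18 libraries were named by Pearson's r, 2 per member, as a description of points that share groups and depth. The closest to Lpin1 were Herpud1 (r = 0.96), a gene of protein quality control in the endoplasmic reticulum, and Apbb3 (r = 0.948). The closest to Agpat3 were Sucla2 (r = 0.978) and Cyp4a10 (r = 0.97), a fatty acid hydroxylase known to follow PPARα. For Dgat2 they were Serpina6 (r = 0.933) and the clock gene Per3 (r = 0.896), and for Lpin2 Retreg1 (r = 0.927) and Mknk2 (r = 0.911). Gpam was closest to Tlcd2 (r = 0.941) and Mblac2 (r = 0.923), and Agpat2 to Tjp3 (r = 0.946) and Smarcd1 (r = 0.928). The genes closest to Pnpla2 were Arsa (r = 0.947) and Ppp2r2d (r = 0.939), and those closest to Mttp were Rps6ka3 (r = 0.912) and Phlpp1 (r = 0.888). Dgat1 ran most like Apeh (r = 0.94) and Taz (r = 0.825).

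Of the 28 calls of members, 11 were kept in every alternative run on single genes. These were Agpat3 in both comparisons of diet and STZ, Agpat2 and Pnpla2 in HS+A10 against A10, Agpat2, Lpin1, Lpin2 and Dgat2 in Con-FMT against HS, Dgat2 in A10-FMT against HS, and Lpin1 and Lpin2 in A10-FMT against Con-FMT.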

How the data were processed

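RNA-seq of 18 mouse liver samples in 6 groups of 3 was analysed from 1 deposited table of RPKM values, rounded to 2 decimals. The authors prepared libraries from liver RNA, aligned reads to the mouse genome and converted counts to RPKM. The study's methods name SOAPaligner, while the submitters' processing notes list Bowtie 0.12.2 and the build mm10, and their roles are not given. The values are not counts, so no count model was used, and the read depth is unknown beyond its relative size. Intervals for counting error were therefore not set, and 3 libraries per group limit the precision. A relative depth was read from the steps between low values of 35 genes.

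Values were analysed as log2(RPKM + 1) with limma 3.58.1 in R 4.3.3: 1 mean per group over all 18 libraries, a variance trend, two-sided tests, a minimum mean of 1 RPKM (10204 of 19057 genes) and Benjamini-Hochberg adjustment over the genes tested. The fit was tested on simulated data. A change was called at an adjusted p below 0.05. The exact permutation test of 3 against 3 cannot go below p = 0.1 and was not used for calls. Alternatives were a pseudocount of 0.1, no minimum, a mean of at least 5 RPKM, equal library medians, quantile normalization, a replicate block, the compared groups alone, the 12 libraries of Con, HS, A10-FMT and Con-FMT, no variance trend, the authors' threshold (adjusted p of at most 0.001 and log2 change of at least 1), and each library left out. Those without Con replicate 3 and A10 replicate 3, and with no minimum and a pseudocount of 0.1, were chosen after seeing the data. Members and lists were chosen with earlier results of these data known. Beside the members, the genes named were other pathway genes called in 3 or more of the 7 comparisons of 2 groups or among the 2 largest changes called in a direction, and for each member the 2 genes closest in Pearson's r. Positions are from GENCODE on GRCm38, and promoter windows from RefSeq. Of the symbols, 26 had been turned into dates and 3 were repeated; none is a member. Python 3.11.15 and matplotlib 3.10.9 were used for summaries and plots. Protein sequences were not used here.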

Additional observations from a re-analysis of the deposited data

How the results depend on the processing

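Counts of the 9 tested genes called moved by more than 1.5 times under the following settings, and no call of a gene turned its direction in any. For HS against Con (4 called), 2 were called with quantile normalization and 2 in the compared groups alone. Without Con replicate 3 and A10 replicate 3, with or without the minimum level, 1 was called there, 1 in HS+A10 against HS (3 called) and 0 in A10 against Con (1 called), and with the minimum level 3 were called in HS+A10 against A10 (5 called). For A10-FMT against HS (5 called) the count was 3 with library medians set equal, 3 with quantile normalization and 2 in the compared groups alone. For Con-FMT against HS (7 called) it was 4 in the compared groups alone. For A10-FMT against Con-FMT (3 called) it was 6 with medians set equal and 5 with quantile normalization. For HS+A10 against HS it was 0 in the compared groups alone. The counts over all genes moved as well. In the compared groups alone they were 619 higher and 83 lower in HS against Con, and 134 and 712 in A10-FMT against HS. There they were 182 and 595 in Con-FMT against HS, and 46 and 30 in HS+A10 against HS. With quantile normalization they were 486 and 390 in HS against Con, 574 and 542 in A10-FMT against HS, and 1147 and 971 in A10-FMT against Con-FMT. The authors' threshold, set here on the limma values, left 2 genes, Lpin1 and Lpin2, in Con-FMT against HS and 0 in the other comparisons. The authors set it on results of DEGseq, another test, so these counts are not those of their own analysis. The cause was not tested. Leaving out each library in turn gave 1 to 3 called in HS against Con, 3 to 4 in HS+A10 against A10, 2 to 4 in A10-FMT against HS, 4 to 7 in Con-FMT against HS, 2 to 3 in A10-FMT against Con-FMT, 1 to 3 in HS+A10 against HS and 0 to 1 in A10 against Con. The libraries whose absence moved a count that far were Con replicates 1 (to 2) and 3 (to 1) and HS replicates 1 (to 2) and 2 (to 1) in HS against Con, A10 replicate 3 and HS+A10 replicate 1 (each to 3) in HS+A10 against A10, A10-FMT replicates 2 and 3 and HS replicate 1 (each to 2) and HS replicate 2 (to 3) in A10-FMT against HS, and Con-FMT replicate 2 (to 4) in Con-FMT against HS. In HS+A10 against HS they were HS replicates 2 and 3 and HS+A10 replicate 1 (each to 1), and in A10 against Con any of the 6 but Con replicate 2 (each to 0). Whether the replicate numbers pair the libraries was not settled, as the values below were not set against chance. Over 45 pairs with a common number the correlation of deviations ran from -0.126 to 0.262, and 12 were over 0.1. The median was 0.00669, beside -0.0073 for pairs with other numbers. Of 18 libraries, 10 correlated best with their own number. With a replicate block 4, 4, 5, 7, 3, 3 and 0 of the genes were called in those 7 comparisons, taken in the order HS against Con, HS+A10 against A10, A10-FMT against HS, Con-FMT against HS, A10-FMT against Con-FMT, HS+A10 against HS and A10 against Con. For Pnpla3, with no minimum and a pseudocount of 0.1 its log2 change was -2.49 in HS against Con and -3.88 in HS+A10 against A10. Of 1341 values of single genes recomputed, 1208 kept their direction and side of the threshold, 109 lost the call, 19 gained it and 5 moved beyond the spread. Among all of these, 29 uncalled values changed sign. An alternative comparison of protein sequences was not run.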
